A study of Mus musculus with 9 samples.

Results

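The genes described here were grouped as genes of GABAergic interneurons, which are inhibitory neurons of the forebrain. Not all are particular to interneurons, and Six3 also acts in striatal neurons. The list has 10 named genes and was chosen when earlier results of these data were known. It holds the homeobox genes Dlx1, Dlx2, Dlx5 and Dlx6 and the transcription factor genes Lhx6, Maf and Six3. It also holds the glutamate decarboxylase genes Gad1 and Gad2 and the vesicular GABA transporter gene Slc32a1. These are 10 of the 35498 genes quantified, and all 10 were among the 15773 genes with enough counts to test. RNA was sequenced from whole cortical tissue of C57Bl/6 mouse embryos at E13.5, in 3 libraries for each of 3 genotypes. The DKO libraries came from embryos labelled Smarca1 -/-; Cre +/-, which the design text names as knocked out for Smarca5 as well. The Smarca1 KO libraries were labelled Smarca1 -/-; Cre -/-, so that both of these groups are labelled as lacking Smarca1. The WT libraries were labelled Smarca1 +/+; Cre -/-. The sources used here give neither the Cre driver, and so the cells that lost Smarca5, nor which exons were deleted, nor the state of Smarca5 in the groups without Cre. Whether each library is a different embryo is not stated, and p-values may therefore reflect technical spread alone.

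Cortical interneurons are born outside the cortex, in the ganglionic eminences of the ventral telencephalon, and migrate tangentially into it during embryonic life. DLX homeodomain factors act in their progenitors and young neurons and promote GABAergic identity, and LHX6 and MAF act later in interneurons of the medial eminence. These neurons make GABA from glutamate with GAD67 and GAD65, the products of Gad1 and Gad2, and load it into synaptic vesicles with VGAT, the product of Slc32a1. SMARCA1 and SMARCA5 are ATPases that drive ISWI chromatin remodellers, complexes that slide and space nucleosomes.

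Library totals ran from 27466046 to 46007527 counts. Smarca5 RNA was 77.2 to 84.4 CPM (counts scaled to a common library total) in the DKO libraries, against 212 to 246 CPM in Smarca1 KO and 262 to 271 CPM in WT. The 3 DKO libraries were below every other library for this gene, as the design text has it. Smarca1 RNA was 37.9 to 38.8 CPM in DKO, 35.3 to 43.8 CPM in Smarca1 KO and 36.4 to 37.8 CPM in WT, and RNA outside the deleted exons can persist, so its total does not check the Smarca1 labels. Markers of glutamatergic cortical cells were abundant in every library, with a summed level of 2331 to 3048 TPM (a measure per transcript length). Transcription factor genes listed for ventral telencephalic GABAergic lineages summed to 940 to 1159 TPM. They include Nkx2-1 and Gsx2, with means of 59.6 and 12.2 CPM in WT. Whether RNA of the listed genes came from cells in the cortex or from ventral tissue was not tested. Meningeal and mesenchymal markers differed between libraries of the same group, with 420 TPM in DKO replicate 1 and 403 TPM in Smarca1 KO replicate 1, against 198 to 336 TPM in the other 7 libraries.

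Of the 10 genes, 6 lie on mouse chromosome 2 (GRCm38, genes from GENCODE): Dlx1 at chr2:71528113-71533981 on the plus strand, Dlx2 at chr2:71543408-71546754 on the minus strand, Gad1 at chr2:70553072-70602014, Gad2 at chr2:22622205-22693874 and Slc32a1 at chr2:158610767-158615748 on the plus strand, and Lhx6 at chr2:36081953-36105408 on the minus strand. Dlx5 (chr6:6877805-6882085, minus strand) and Dlx6 (chr6:6863334-6868568, plus strand) form a second pair like Dlx1 and Dlx2. The genes of these pairs lie on opposite strands, 9.24 kb apart for Dlx5 and Dlx6 and 9.43 kb apart for Dlx1 and Dlx2. Maf lies at chr8:115682942-115707794 on the minus strand and Six3 at chr17:85613608-85629302 on the plus strand. Gad1 is 926 kb from Dlx1.

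The promoter windows of the GABA-making enzymes, the transporter, Lhx6 and Six3 are shown because they cover GABA synthesis and loading and a migration factor, and include the gene whose call was kept under every alternative tried, Six3. Each runs 5′ to 3′ on the gene's strand, from 250 bases before to 50 after a RefSeq transcript start (RefSeq, GRCm38.p6), and capitals mark matches to the motifs named below.
Gad1 (chr2:70561879-70562178, plus strand): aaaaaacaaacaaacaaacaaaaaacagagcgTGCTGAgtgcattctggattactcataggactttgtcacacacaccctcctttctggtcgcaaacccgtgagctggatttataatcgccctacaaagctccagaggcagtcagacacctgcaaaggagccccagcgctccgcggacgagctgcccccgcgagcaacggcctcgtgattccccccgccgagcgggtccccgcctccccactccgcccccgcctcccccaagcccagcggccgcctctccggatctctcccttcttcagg
Gad2 (chr2:22622077-22622376, plus strand): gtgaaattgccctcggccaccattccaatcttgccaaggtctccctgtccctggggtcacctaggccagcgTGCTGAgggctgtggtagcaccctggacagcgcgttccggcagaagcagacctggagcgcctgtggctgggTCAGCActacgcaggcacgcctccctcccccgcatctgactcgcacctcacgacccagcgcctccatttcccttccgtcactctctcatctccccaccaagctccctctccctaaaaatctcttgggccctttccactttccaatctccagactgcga
Slc32a1 (chr2:158610508-158610807, plus strand): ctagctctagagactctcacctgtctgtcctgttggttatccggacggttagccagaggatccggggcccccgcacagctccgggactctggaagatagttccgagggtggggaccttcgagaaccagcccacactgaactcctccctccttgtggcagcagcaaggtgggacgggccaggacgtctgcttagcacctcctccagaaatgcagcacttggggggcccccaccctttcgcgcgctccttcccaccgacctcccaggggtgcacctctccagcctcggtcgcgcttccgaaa
Lhx6 (chr2:36105359-36105658, minus strand): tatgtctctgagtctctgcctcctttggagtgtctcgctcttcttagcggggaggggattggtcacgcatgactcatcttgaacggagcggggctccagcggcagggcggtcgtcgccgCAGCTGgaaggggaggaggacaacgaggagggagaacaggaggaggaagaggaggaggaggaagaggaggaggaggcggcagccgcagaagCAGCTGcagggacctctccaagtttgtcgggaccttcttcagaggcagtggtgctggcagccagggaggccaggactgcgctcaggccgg
Six3 (chr17:85620584-85620883, plus strand): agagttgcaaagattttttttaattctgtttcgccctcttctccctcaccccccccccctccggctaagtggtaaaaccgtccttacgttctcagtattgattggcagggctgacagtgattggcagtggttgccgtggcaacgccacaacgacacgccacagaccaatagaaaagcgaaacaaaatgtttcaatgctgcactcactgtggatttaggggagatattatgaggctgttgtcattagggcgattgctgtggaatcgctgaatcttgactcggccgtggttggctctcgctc

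The RefSeq table held 9 such windows for 7 of the genes. Searched on both strands, TGCTGA, part of the recognition element of large MAF factors, occurred in 2 of the 9 windows, those of Gad1 (1 match) and Gad2 (2 matches, the second as TCAGCA), against 19.5% of all 32851 windows in the table. CAGCTG, an E-box bound by proneural factors, occurred in 1 of the 9 windows, the Lhx6 window shown, against 16.3% of all windows. TAATTA, the core bound by homeodomains of the DLX and LHX kind, was in 0 of the 9 windows and in 5.29% of all windows. No match overlapped a match to another motif. GC content was 61.3% in the Gad2 window, 60.0% in Gad1, 63.3% in Slc32a1 and in the Lhx6 window shown and 50% in Six3, and the median of all windows was 52.7%.

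Per transcript length, Dlx1 was the most abundant of the genes, with a mean of 196 TPM over the 9 libraries (161 to 243 TPM), and Dlx2 followed with 136 TPM (122 to 155 TPM). The next 4 genes, Gad1, Dlx5, Lhx6 and Gad2, had means of 70.2, 68.4, 60.0 and 55.7 TPM, and their ranges over libraries overlapped, from 57.0 to 88.0 TPM for Gad1 down to 49.96 to 65.6 TPM for Gad2. Dlx6 averaged 37.5 TPM, Slc32a1 31.9 TPM and Six3 30.4 TPM, again with overlapping ranges. Maf was the lowest at 18.1 TPM (14.4 to 25.4 TPM), close to the middle of all tested genes, since 48.6% of them had a lower mean TPM. The lowest count behind any of these values was 447, for Dlx6, so none of the genes was near the limit of detection.

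The comparison of DKO with WT spans the loss of both ATPases. Dlx1, Dlx5, Slc32a1, Maf and Six3 rose in DKO cortex, by 1.23-fold to 1.39-fold, and the other 5 genes also had positive log2 fold changes that did not pass the test. The test was edgeR's quasi-likelihood F test with Benjamini-Hochberg adjustment over all 15773 genes, with a threshold of 0.05 on the adjusted p. Because the list was chosen with such results known, the shares over all genes are given as a background and not as a test. The 5 genes called, all higher, compare with 5.61% of all tested genes called higher and 12% called in either direction. A positive log2 fold change was seen for 10 of the 10 genes and for 51.7% of all tested genes. The median log2 fold change of the 10 genes was 0.33, against 0.0078 over all tested genes. In whole tissue, more or fewer cells of a type and more or less RNA per cell cannot be told apart. The plot of levels by library shows the values behind these counts.

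**Figure D1:**
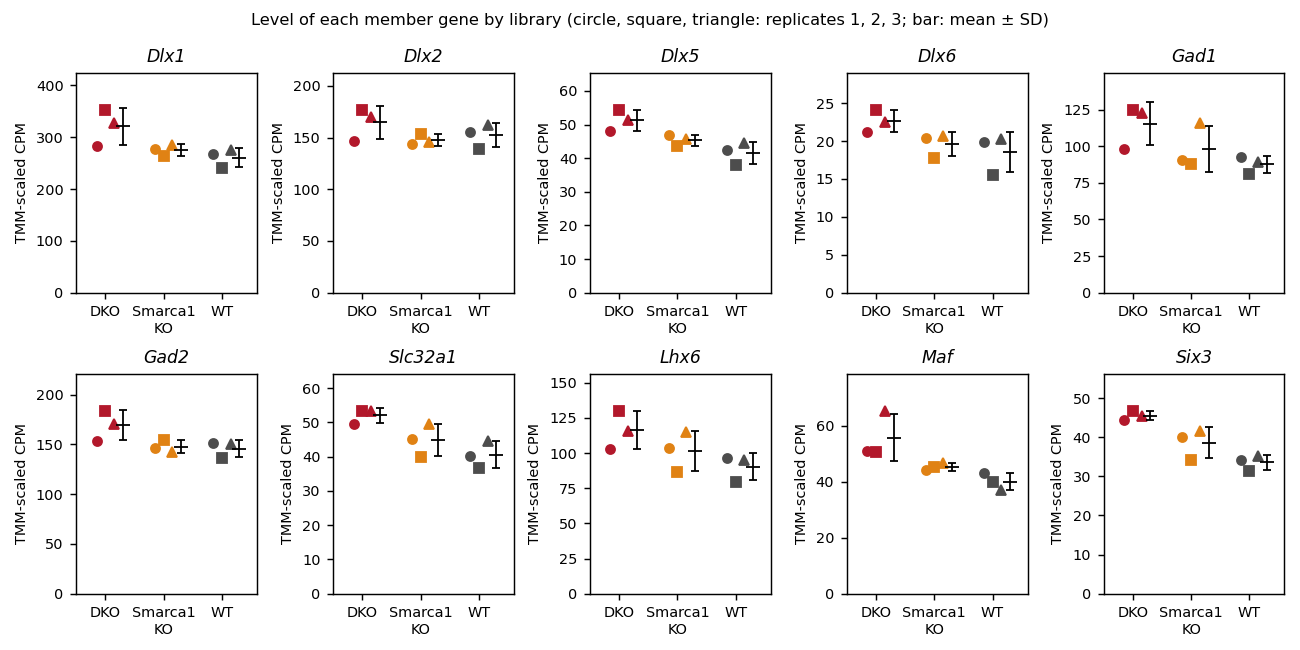
TMM-scaled CPM (vertical axis, from 0) of each of the 10 genes in the 3 DKO, 3 Smarca1 KO and 3 WT libraries, with 1 symbol per replicate number and a bar for the mean ± SD. Every DKO library lies above every WT library for 9 of the 10 genes, the exception being Dlx2, and DKO replicate 1 (circle) is the lowest DKO library for 9 of the 10.

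In DKO replicates 1, 2 and 3, Dlx1 was at 282, 353 and 328 CPM, against 267, 239.9 and 274 CPM in the WT replicates. All 3 DKO libraries were above all 3 WT libraries, the lowest DKO library by little. Dlx1 rose, at 321 ± 35.7 CPM in DKO and 260.4 ± 18.2 CPM in WT (SD, n = 3 each), and its log2 fold change was 0.30 with an SE of 0.081 (adjusted p = 0.0405, edgeR). The call was lost with effective-length offsets (adjusted p = 0.114, edgeR) and with protein-coding transcripts only (adjusted p = 0.0574, edgeR). Dlx2, its neighbour and paralogue, measured 147, 177 and 169.9 CPM in DKO, while the WT replicates had 155, 139 and 162 CPM. The groups overlapped, and its log2 fold change, 0.11 with an SE of 0.076 (adjusted p = 0.339, edgeR), was the smallest of the 10.

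Dlx5, which acts in postmitotic cells downstream of Dlx1 and Dlx2 in the ventral forebrain, was 48.1, 54.4 and 51.4 CPM in DKO, against 42.3, 38.1 and 44.5 CPM in WT. The groups did not overlap, and Dlx5 rose by 0.30 on the log2 scale (SE 0.068, adjusted p = 0.0232, edgeR). Dlx6, the other gene of the pair, was found at 21.2, 24.1 and 22.5 CPM in DKO, and at 19.9, 15.5 and 20.3 CPM in WT. Its groups did not overlap either, with WT replicate 2 well below the rest, and its difference of 0.28 on the log2 scale (SE 0.109, adjusted p = 0.113, edgeR) did not pass the test.

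Lhx6, a LIM homeobox gene required for the migration and specification of interneurons from the medial ganglionic eminence, was 103, 130.1 and 115 CPM in DKO, against 96.2, 79.2 and 95.3 CPM in WT. The groups did not overlap, but the spread was wide, and its difference of 0.36 on the log2 scale (SE 0.118, adjusted p = 0.0727, edgeR) missed the threshold. Maf, which encodes c-MAF, a factor for somatostatin-type and parvalbumin-type interneurons, had 51.0, 50.6 and 65.3 CPM in DKO, compared with 43.2, 39.8 and 37.0 CPM in WT. DKO replicate 3 stood above the other 2 DKO libraries, and all 3 were above WT. Maf had the largest log2 fold change of the 10, at 0.48 (SE 0.099, adjusted p = 0.0182, edgeR).

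Six3, a homeobox gene of the anterior forebrain and eye field that also acts in striatal neurons, was 44.4, 46.8 and 45.4 CPM in DKO, against 34.2, 31.5 and 35.2 CPM in WT. The libraries of each group lay close together and the groups were far apart, and Six3 had the smallest adjusted p of the 10 (log2 fold change 0.44, SE 0.076, adjusted p = 0.0097, edgeR). Of the eye-field genes that go with Six3, Rax reached at most 0.175 TPM and Six6 at most 0.107 TPM in any library, and neither had enough counts to test. On the list of diencephalic and eye-field genes, 14 others were tested. Positive log2 fold changes in DKO against WT were seen for 12 of these 14 (median 0.36).

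Gad1 was 98.3, 125 and 122 CPM in DKO, against 92.7, 81.1 and 89.3 CPM in WT. Gad2 was 153, 184 and 171 CPM in DKO, against 151, 136 and 150.1 CPM in WT. For both enzymes every DKO library was above every WT library, with DKO replicate 1 close to the WT values, and neither passed the test. The log2 fold change was 0.39 (SE 0.119, adjusted p = 0.0591, edgeR) for Gad1 and 0.22 (SE 0.070, adjusted p = 0.071, edgeR) for Gad2. Slc32a1 had 49.5, 53.3 and 53.4 CPM in DKO, compared with 40.3, 36.8 and 44.6 CPM in WT. The DKO libraries were alike and above all WT libraries, and the transporter gene rose by 0.36 on the log2 scale (SE 0.087, adjusted p = 0.0296, edgeR).

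For 9 of the 10 genes every DKO library was above every WT library, which held for 20.9% of all tested genes. At an unadjusted p under 0.05 there were 9 of the 10, against 31% of all tested genes. How many of the 10 were called depended on single libraries: 8 were called without DKO replicate 1, 2 without DKO replicate 2, DKO replicate 3 or WT replicate 1, 1 without WT replicate 2, 3 without WT replicate 3, and 5 with all libraries. The share of all tested genes called in either direction moved as well, to 13.4% without DKO replicate 1, 4.45% without DKO replicate 2, 3.41% without DKO replicate 3, and 2.82%, 3.37% and 3.24% without WT replicates 1, 2 and 3. Without Smarca1 KO replicates 1, 2 and 3, which enter the estimate of the spread, 4, 6 and 7 of the 10 were called, and 12%, 13.4% and 19.8% of all tested genes. Six3 was the 1 gene called with each library left out in turn, with adjusted p up to 0.0492. Maf was not called without WT replicate 2 (adjusted p = 0.0733) or WT replicate 3 (0.0772). Dlx5 and Slc32a1 were not called without DKO replicate 2 (0.086 for Dlx5, 0.0945 for Slc32a1), DKO replicate 3 (0.0802, 0.0992), WT replicate 1 (0.0783, 0.104) or WT replicate 2 (0.0891, 0.115). Dlx1 was not called without any one of DKO replicate 2, DKO replicate 3, WT replicate 1, WT replicate 2, WT replicate 3 or Smarca1 KO replicate 1, with adjusted p of 0.134, 0.127, 0.107, 0.152, 0.0857 and 0.0524 in that order.

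DKO and Smarca1 KO share the Smarca1 genotype, so setting them against each other addresses the Cre and the loss of Smarca5. All 10 genes had positive log2 fold changes (51.1% of all tested genes did), from 0.16 for Dlx2 to 0.30 for Maf, and the adjusted p ran from 0.125 for Six3 to 0.437 for Lhx6. The number called by edgeR was 0 of 10, against 4.39% of all tested genes (1.73% higher and 2.66% lower). DESeq2 called 0 of the 10 as well, against 4.96% of the 22735 genes in its fit. At an unadjusted p under 0.05 there were 6 of the 10, against 18.4% of all tested genes. The median log2 fold change was 0.21, against 0.0041 over all genes. For 5 of the 10 genes every DKO library was above every Smarca1 KO library, against 9.72% of all tested genes.

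Those 5 genes were Dlx5, Dlx6, Slc32a1, Maf and Six3. The lowest DKO value of Dlx5 was 48.1 CPM, against 46.9, 43.6 and 45.7 CPM in Smarca1 KO. The lowest DKO value of Maf was 50.6 CPM, against 44.0, 45.1 and 46.7 CPM in Smarca1 KO. For Six3 it was 44.4 CPM, against 40.1, 34.2 and 41.6 CPM in Smarca1 KO. All 3 Smarca1 KO libraries lay below the DKO libraries for each of these genes. For Dlx6 the lowest DKO value was 21.2 CPM, against 20.4, 17.8 and 20.7 CPM in Smarca1 KO. Slc32a1 was separated by the least, with 49.5 CPM in the lowest DKO library, against 45.3, 40.0 and 49.4 CPM in Smarca1 KO.

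The other 5 genes overlapped. Dlx1 had 282 CPM in DKO replicate 1, within the Smarca1 KO values of 277, 263 and 285 CPM. Without that DKO library Dlx1 was called (log2 fold change 0.31, adjusted p = 0.0417, edgeR), the only one of the 10 called in this comparison with any single library left out. Gad2 had 153 CPM in DKO replicate 1, against 146, 155 and 142 CPM in Smarca1 KO, and Dlx2 had 147 CPM there, against 144, 154 and 145 CPM. For Gad1 the lowest DKO value was 98.3 CPM, against 90.9, 87.6 and 116 CPM in Smarca1 KO. For Lhx6 it was 103.0 CPM, against 103.3, 86.6 and 115 CPM in Smarca1 KO. Replicate 3 of Smarca1 KO thus reached into the DKO range for both genes, and replicate 1 did so narrowly for Lhx6. Their log2 fold changes were 0.23 (SE 0.119) for Gad1 and 0.19 (SE 0.118) for Lhx6.

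The comparison of Smarca1 KO with WT sets apart groups that differ by label in Smarca1. Smarca5 RNA was also below every WT library in every Smarca1 KO library (log2 fold change −0.19, SE 0.059), a difference that did not pass the test (adjusted p = 0.159, edgeR). This comparison is also the test of the difference between the other comparisons. Here 9 of the 10 genes, and 52.8% of all tested genes, had positive log2 fold changes and Dlx2 had a negative one of −0.04, and the largest was 0.20 (SE 0.076) for Six3. The number called by edgeR was 0 of 10, against 0.336% of all tested genes (0.139% higher and 0.197% lower). DESeq2 called 0 of the 10, against 3.08% of the 22735 genes in its fit. At an unadjusted p under 0.05 there was 1 of the 10, Six3, against 18.9% of all tested genes, and the adjusted p ran from 0.219 to 0.91. Maf was the 1 gene for which every Smarca1 KO library was above every WT library, against 12.5% of all tested genes. The median log2 fold change was 0.14, against 0.01 over all genes. A difference between DKO against WT and DKO against Smarca1 KO was therefore not detected for any of the 10.

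**Figure D2:**
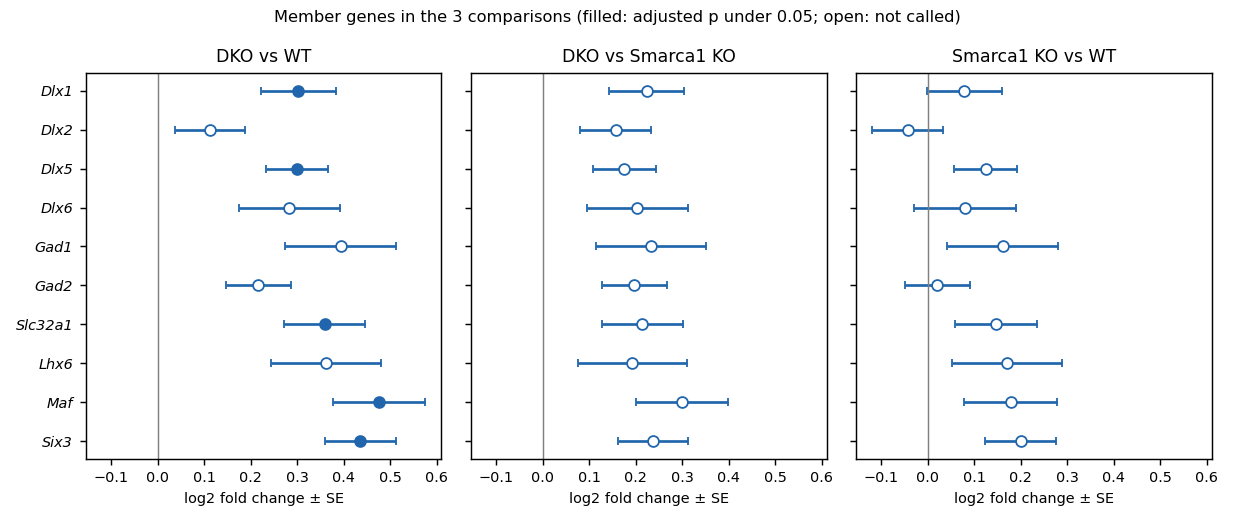
Log2 fold change (horizontal axis) with its SE for each of the 10 genes in DKO against WT, DKO against Smarca1 KO and Smarca1 KO against WT. Points that passed edgeR's test at an adjusted p under 0.05 are filled, 5 in the left panel and 0 in the middle and right panels, and all values are positive except that of Dlx2 in the right panel.

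The ratio of counts within a pair does not depend on how libraries are scaled, and these pairs were looked at after the single genes had been seen. The log2 ratio of Dlx1 to Dlx2 was 0.942, 0.997 and 0.95 in DKO, against 0.78, 0.78 and 0.76 in WT. The groups did not overlap, and the mean was higher by 0.19 in DKO (exact two-sided permutation test, p = 0.1, which is the smallest that 3 against 3 libraries can give, and 0.45 adjusted over 9 tests). In Smarca1 KO it was 0.95, 0.77 and 0.97, which overlaps the values of both other groups. The log2 ratio of Gad1 to Gad2 was −0.64, −0.56 and −0.48 in DKO and −0.71, −0.74 and −0.75 in WT, again with no overlap (difference 0.17, exact permutation p = 0.1, adjusted 0.45). The Smarca1 KO values of −0.69, −0.82 and −0.29 were more spread than either. The log2 ratio of Dlx5 to Dlx6 averaged 1.18 ± 0.0081 in DKO and 1.17 ± 0.110 in WT (SD, n = 3 each), a difference of 0.0079 (exact permutation p = 1).

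**Figure D3:**
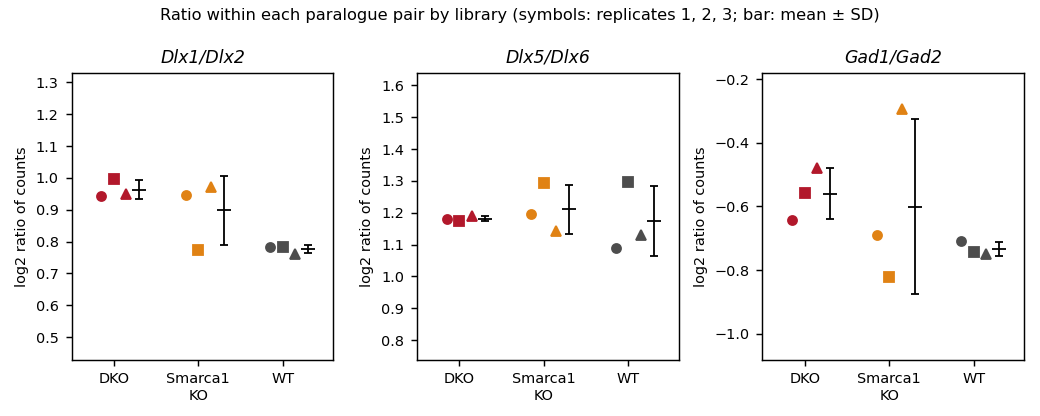
Log2 ratio of counts (vertical axis, which does not start at 0 but spans the same width in each panel) within each paralogue pair in the DKO, Smarca1 KO and WT libraries, with symbols for replicates 1, 2 and 3 and a bar for the mean ± SD. The DKO and WT values are apart for Dlx1/Dlx2 and Gad1/Gad2 and overlap for Dlx5/Dlx6.

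Across libraries the 10 genes varied together to different degrees. Their mean deviation from the average of the 9 libraries, in log2 CPM, was 0.05, 0.26 and 0.23 in DKO replicates 1, 2 and 3, −0.03, −0.12 and 0.05 in Smarca1 KO and −0.09, −0.27 and −0.08 in WT. DKO replicate 1 was thus nearer to Smarca1 KO replicate 3 than to the other DKO libraries, and WT replicate 2 was the lowest library. DKO replicate 1 was the lowest DKO library for 9 of the genes and WT replicate 2 the lowest WT library for 9. DKO replicate 1 was also the library highest in meningeal markers (420 TPM) and in markers of cortical hem and choroid plexus (1037 TPM, against 409 to 896 TPM in the other 8 libraries). With DKO replicate 1 and Smarca1 KO replicate 1 both left out, 8 of the 10 genes were called higher in DKO than in WT, where 17.6% of all tested genes were called in either direction. Other lists also had more calls in that fit: 12 of 20 GABA receptor genes, 10 of 20 striatal genes and 13 of 20 pan-neuronal genes were called higher, and 9 of 16 meningeal, 5 of 15 endothelial and mural and 5 of 12 blood genes were called lower. The part of these cell types in the result was not tested. Dlx1 followed the mean profile of the 10 most closely, with a root mean square difference of 0.034 log2 CPM over the 9 libraries, and Maf least, with 0.137.

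Outside the list, 12383 genes had a mean log2 CPM of 1 or more, once symbols of predicted or unnamed gene models were left out. The 5 of these whose profile over the 9 libraries was most like the mean of the 10 were Cbfa2t3, Sept6, Kcnd3, Elmo1 and Rab4b. Their root mean square differences were 0.0406 to 0.0471 log2 CPM. Cbfa2t3, a transcriptional corepressor gene, was 79.98 ± 7.49 CPM in DKO, 69.2 ± 4.56 CPM in Smarca1 KO and 65.8 ± 4.06 CPM in WT (SD, n = 3 each). Kcnd3, a potassium channel gene, was 67.4 ± 3.66 CPM in DKO, 58.6 ± 5.41 CPM in Smarca1 KO and 52.2 ± 4.52 CPM in WT. All 5 were chosen for this likeness, so their levels are a description.

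**Figure D4:**
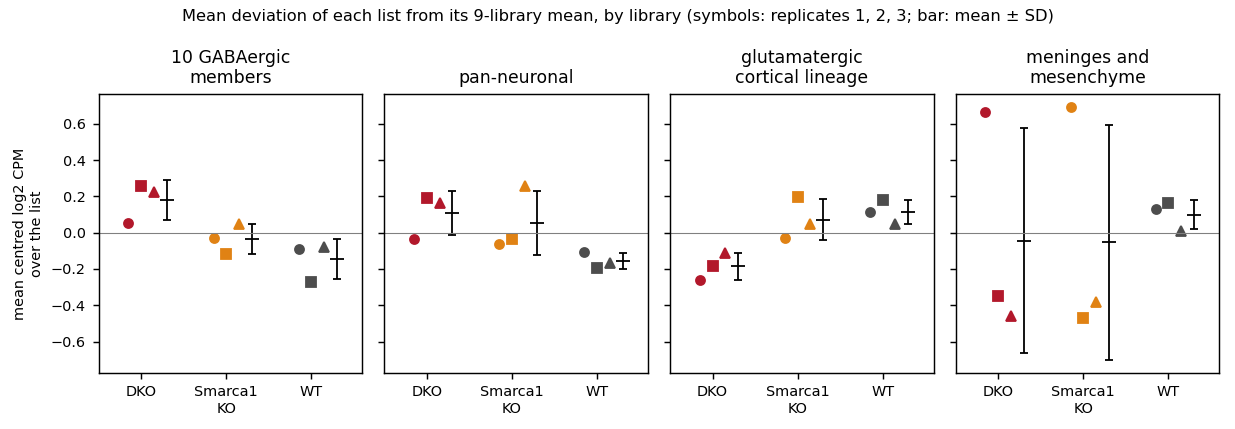
Mean centred log2 CPM (vertical axis: each gene's difference from its mean over the 9 libraries, averaged over the list) for the 10 genes and for 3 marker lists in the DKO, Smarca1 KO and WT libraries, with symbols for replicates 1, 2 and 3 and a bar for the mean ± SD. The 10 genes are highest on average in DKO, the pan-neuronal list is above its average in 2 DKO libraries and Smarca1 KO replicate 3, the glutamatergic list is lowest in DKO, and the meningeal list is high in replicate 1 of DKO and of Smarca1 KO.

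Further genes of the interneuron lineage and of GABA signalling were read from lists, and the counts compare with 5.61% of all tested genes called higher and 6.35% called lower in DKO against WT. Of 20 other transcription factor genes of ventral GABAergic lineages with enough counts, 1 rose in DKO against WT and 1 fell, which is near those shares. Sp8, a zinc finger gene of the dorsal lateral and caudal eminences, rose (log2 fold change 0.28, adjusted p = 0.0451), and also rose against Smarca1 KO (0.38, adjusted p = 0.0243). Nr2f1, a nuclear receptor gene that patterns cortex and is also made by interneurons, fell (−0.19, adjusted p = 0.0313), and fell in Smarca1 KO against WT too (−0.35, adjusted p = 0.0158). The remaining 18 did not pass, among them Nkx2-1, which specifies the medial eminence (70.0 CPM in DKO and 59.6 CPM in WT). The median of the list was 0.15 on the log2 scale.

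Of 23 subtype and migration genes tested, 3 rose and 2 fell in DKO against WT, and the median was 0.32. The 3 mark interneuron subtypes but not these alone. Calb2, which encodes calretinin and is also made by Cajal-Retzius cells, had 11.8, 16.2 and 11.8 CPM in DKO, compared with 5.38, 6.07 and 7.42 CPM in WT, with no overlap (log2 fold change 1.07, SE 0.217, adjusted p = 0.0163). The neuropeptide gene Npy had 8.37, 11.4 and 12.6 CPM in DKO, compared with 6.76, 7.14 and 6.83 CPM in WT (0.65, adjusted p = 0.03). Sst, the somatostatin gene, averaged 59.9 ± 13.2 CPM in DKO and 40.3 ± 4.35 CPM in WT (SD, n = 3 each; log2 fold change 0.57, adjusted p = 0.0392). The genes that fell were Nrp1, a semaphorin receptor (−0.56, adjusted p = 0.0136), and Epha4, an ephrin receptor (−0.34, adjusted p = 0.0192), both of which other cortical cells also make. Against Smarca1 KO 0 of the 23 rose by edgeR, with 8 at an unadjusted p under 0.05 in either direction, and 1 fell, Nrp1 (−0.80, adjusted p = 0.0049). Vip was at 0 TPM and Pvalb at most 0.223 TPM in every library.

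Of 14 further genes for making, moving and breaking down GABA, 5 rose and 3 fell in DKO against WT (median 0.24). Glul, glutamine synthetase, was 155, 153 and 149.6 CPM in DKO against 118, 118 and 117 CPM in WT (log2 fold change 0.37, SE 0.054, adjusted p = 0.0047). The libraries of the groups did not overlap. Aldh5a1, the succinic semialdehyde dehydrogenase of GABA breakdown, fell against WT (−0.34, adjusted p = 0.0125) and against Smarca1 KO (−0.27, adjusted p = 0.0445). Of 20 genes for GABA receptors and their anchoring, 2 rose, Gabra4 (0.88, adjusted p = 0.0274) and Gabra5 (0.86, adjusted p = 0.0453), both receptor subunit genes. The median of that list was 0.43 in DKO against WT, 0.13 in DKO against Smarca1 KO and 0.36 in Smarca1 KO against WT.

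**Figure D5:**
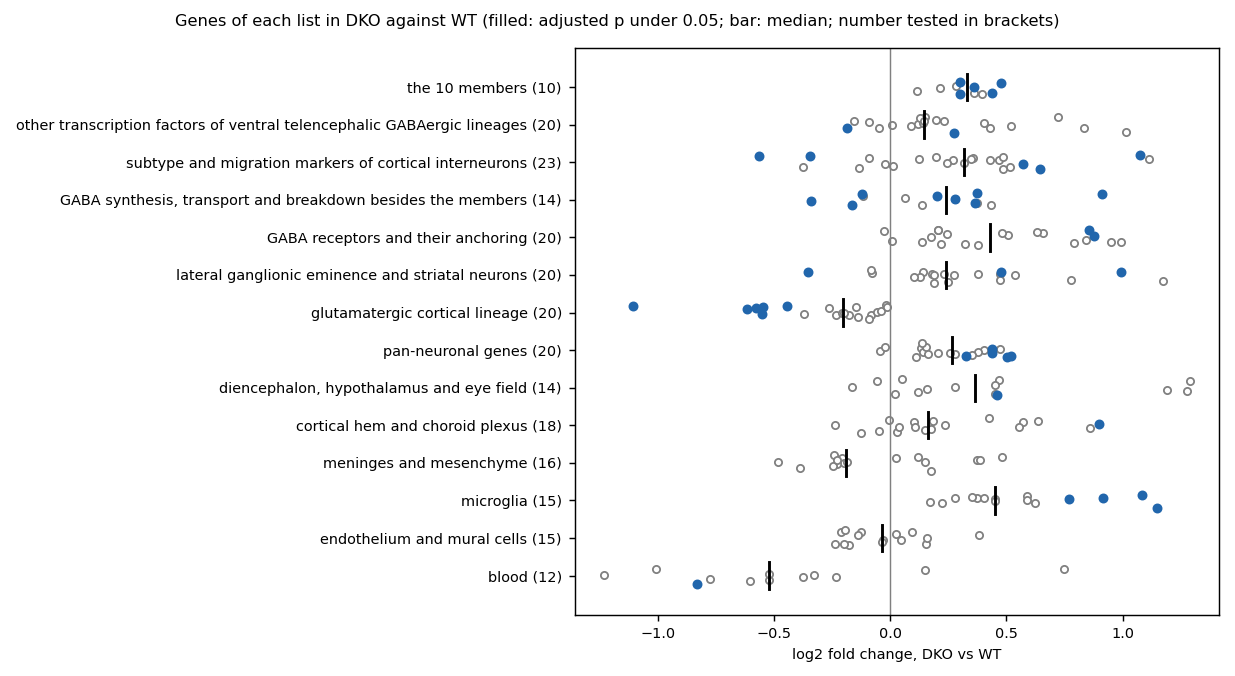
Log2 fold change in DKO against WT (horizontal axis) of each tested gene of the 10-gene list and 13 further lists, with filled points for genes that passed edgeR's test at an adjusted p under 0.05 and a bar at each list's median. The 10 genes lie between 0.11 and 0.48, all above 0, and the 20 glutamatergic genes lie below 0.

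Lists for neighbouring tissues and other cell types give the setting. Of 20 genes of the lateral eminence and striatum, 2 rose in DKO against WT (Rarb 0.47, Ikzf1 0.99, both transcription factor genes) and 1 fell (Foxp4 −0.35), with a median of 0.24, and Tshz1 rose against Smarca1 KO (0.31, adjusted p = 0.0245). Of 14 diencephalic and eye-field genes, 1 rose, Vax1 (0.46, adjusted p = 0.0473), and 12 had positive log2 fold changes. Their median was 0.36, against 0.33 for the 10 genes. With DKO replicate 1 and Smarca1 KO replicate 1 both left out, these medians were 0.25 and 0.39. At an unadjusted p under 0.05 (edgeR, all libraries) there were 3 of the 14, against 9 of the 10. Of 18 genes of cortical hem and choroid plexus 1 rose, Ttr (0.90, adjusted p = 0.0377), with a median of 0.16. A single call in lists of this size is near the 5.61% of all tested genes called higher. Wnt5a of the hem and choroid plexus list rose against Smarca1 KO (0.53, adjusted p = 0.0488). The glutamatergic cortical list went the other way: 6 of 20 fell and 0 rose in DKO against WT, with a median of −0.20, where 6.35% of all tested genes were called lower. The 4 with the smallest p were Neurog1 (−1.11), Emx1 (−0.62), Lhx2 (−0.58) and Fezf2 (−0.45), transcription factor genes of cortical progenitors and projection neurons, and Neurog1, Emx1 and Fezf2 fell against Smarca1 KO as well.

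Of 20 pan-neuronal genes 5 rose in DKO against WT and 0 fell, with a median of 0.27. The 4 with the smallest p were Uchl1 (0.32), Stmn2 (0.44), Ina (0.44) and Gap43 (0.52). The summed level of the pan-neuronal list was 5982 to 6895 TPM in DKO, 5824 to 7391 TPM in Smarca1 KO and 5453 to 5727 TPM in WT, and that of the 10 GABAergic genes was 690.0 to 849 TPM in DKO, 643 to 709 TPM in Smarca1 KO and 585 to 684 TPM in WT. General neuronal RNA thus also moved with the DKO and WT groups, and its part in the difference of the 10 genes was not tested. Of 15 microglial genes 4 rose in DKO against WT (C1qc 1.08, Cx3cr1 0.77, C1qa 1.15, Trem2 0.92) and the summed level was 116 to 149 TPM in DKO and 92.6 to 94.5 TPM in WT, and its part in the difference of the 10 genes was not tested either. Of 12 blood genes 1 fell (Hba-a1 −0.83), and of 4 Y-linked genes 1 fell (Ddx3y −0.26).

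The lists with no call in DKO against WT were meninges and mesenchyme and endothelium and mural cells, where edgeR called 0 of 31 genes, with 0 at an unadjusted p under 0.05 and 0 called by DESeq2. That count rested on DKO replicate 1 and Smarca1 KO replicate 1, since with both left out 9 of 16 genes of meninges and mesenchyme and 5 of 15 of endothelium and mural cells were called lower in DKO than in WT. In DKO against Smarca1 KO, 7 lists of 100 genes had 0 calls by edgeR, with 16 at an unadjusted p under 0.05 and 1 called by DESeq2. The GABA receptor and pan-neuronal lists were among them, and 2 microglial genes, Cx3cr1 (0.66) and Trem2 (0.81), rose. In Smarca1 KO against WT, 13 lists of 209 genes had 0 calls by edgeR, with 40 at an unadjusted p under 0.05 and 8 called by DESeq2, and the call outside them was that of Nr2f1.

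Of the nearest tested coding genes on either side of the 10 that are not on the list themselves, 1 was called in DKO against WT. This was Gpr158, 792 kb from Gad2, which rose (log2 fold change 0.94, adjusted p = 0.0356). Metap1d, 2.92 kb from Dlx1, had a log2 fold change of −0.07 (SE 0.237), Actr5, 9.14 kb from Slc32a1, had −0.08 (SE 0.067), and Rbm18, 10.7 kb from Lhx6, had 0.01 (SE 0.036). None of these 3 passed the test.

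Antisense or overlapping transcripts share exon bases with Dlx1 (335 bases with Dlx1as), Dlx6 (104 with Dlx6os2), Slc32a1 (697 with Gm14205), Maf (440 with Gm15655), Lhx6 (104 with Gm27953) and Six3 (106 with Six3os1 and 168 with Gm28528). Those transcripts were not analysed here, and the sources used here do not say whether counting used strand, so reads of the antisense ones cannot be told apart from those of these genes. Of the 31-mers of Dlx6, 7.43% also occur in other genes, as do 4.01% of those of Gad1 (in part in its pseudogene Gad1-ps), 2.25% of those of Gad2 and under 1% of those of each other gene. Of Dlx1's summed TPM, 44.2% was on the coding transcript Dlx1-201 and 22.4% and 19.2% on the retained-intron transcripts Dlx1-203 and Dlx1-206. The share of Dlx1-201 was 44.9% ± 0.156 in DKO, 44.4% ± 4.35 in Smarca1 KO and 43.2% ± 2.36 in WT (SD, n = 3 each), differences within the spread between libraries.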

How the data were processed

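The submitters' processing notes name Salmon 1.4.0, the build mm10 and DESeq2, the last with no stated use. Nothing there states the transcript index, strand setting or filters. Per the file headers, the authors deposited for each of 9 libraries the estimated count of every transcript (unnormalised), its TPM (scaled for length and to a fixed total) and its effective length. Of 116546 transcripts, 115977 matched GENCODE identifiers on GRCm38, and the other 569 took 0.104% to 0.116% of a library's reads. Estimated counts were summed to 35498 genes and rounded. Library totals were 27466046 to 46007527.

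edgeR 4.0.16 (limma 3.58.1, R 4.3.3) fitted all 9 libraries together with group means, TMM scaling (factors 0.991 to 1.02) and filterByExpr, which kept 15773 genes. The quasi-likelihood F test gave p-values, adjusted by Benjamini-Hochberg over these genes and called under 0.05. The biological coefficient of variation was 10.2% in common. The SE is the size of the log2 fold change divided by the square root of F. DESeq2 1.42.0 and 18 further settings were alternatives. Ratios were tested with SciPy 1.17.1. The script was tested on simulated data. Within groups, libraries differed by more than sampling noise, so none was counted as a duplicate.

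The members and lists were chosen with earlier results of these data known. Besides the members and Smarca5 and Smarca1, the text names from each of 14 lists at most 4 called genes a comparison, those with the smallest p, and the 5 genes with the most similar profile. Sst and the other genes named (neighbours, genes that did not pass, genes at or near 0) were chosen after their values were seen. Values of some genes on the lists are not reported here.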

Additional observations from a re-analysis of the deposited data

How the results depend on the processing

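In DKO against WT and in DKO against Smarca1 KO, all 10 genes kept positive log2 fold changes under the 19 alternatives run. In DKO against WT, 5 of the 10 were called, against 12% of all tested genes, and 1 to 8 with single libraries left out. DESeq2 called 8 of the 10, against 12.4% of the 22735 genes in its fit. With both Smarca1 KO replicate 1 and DKO replicate 1 left out, 8 of the 10 were called, against 17.6% of all tested genes. Six3 was called in 19 alternatives, Maf in 17, Dlx5 and Slc32a1 in 15, Dlx1 in 10, Gad1 and Lhx6 in 6, Gad2 in 3, and Dlx2 and Dlx6 in 0. In DKO against Smarca1 KO the count was 0, and 0 to 1 with single libraries left out. The cause of these changes was not tested.

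Over all genes, DKO against WT gave 1887 calls, 2828 by DESeq2, 3443 with the 2 groups alone and 450 to 3178 with single libraries left out. DKO against Smarca1 KO gave 692, 1128 by DESeq2, 181 with the 2 groups alone, 389 with effective-length offsets, 461 from protein-coding transcripts, 398 with both of those libraries left out, and 286 to 795 with single libraries left out. Smarca1 KO against WT gave 53, 701 by DESeq2, 90 without a filter, 25 from protein-coding transcripts, 607 with both left out, and 14 to 72 with single libraries left out.

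Libraries share replicate numbers across groups. Deviations of same-numbered libraries correlated at −0.063 to 0.35, the highest for replicate 1 of Smarca1 KO and of DKO. Libraries with different numbers correlated at −0.256 to 0.16. What replicate 1 of Smarca1 KO and of DKO have in common was not tested. With the replicate block, 4 of the 10 genes were called in DKO against WT (Dlx1 was lost), and 0 in each other comparison. Over all genes the replicate block gave 1745, 529 and 29 calls in DKO against WT, DKO against Smarca1 KO and Smarca1 KO against WT.

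In Smarca1 KO against WT the log2 fold change of Gad2 turned to −0.0356 with effective-length offsets, and its range with single libraries left out was −0.0302 to 0.0464. That of Dlx6 ranged from −0.0347 to 0.146 and that of Dlx2 from −0.105 to 0.0004. None of these was called.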
